A study of Homo sapiens with 7 samples.

Results

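Resistant clone 2 is a line grown out of T47D cells under palbociclib, and its 2 RNA-seq libraries were compared here with the 3 libraries of the parental T47D cells, 5 of the 7 libraries of the series. The members were taken by their labels alone, as the libraries labelled parental and resistant clone 2, over all genes with enough counts. T47D is a human luminal breast cancer line that expresses the estrogen and progesterone receptors. Palbociclib inhibits CDK4 and CDK6, the kinases that phosphorylate the retinoblastoma protein at the start of the cell cycle. Resistance was selected over 6 months, with the drug raised from 1 to 5 µM, and the labels state that experiments were run without palbociclib unless noted. The labels write the later maintenance dose in millimolar where the selection is given in micromolar, and this difference was not resolved. All cells, parental ones included, grew in medium that held serum, insulin, EGF and hydrocortisone. Resistant clone 4, a second line with 2 libraries, was used only to test whether a change of clone 2 differed from that of another clone selected in the same way. Each resistant line is 1 clone, so a difference from the parental cells can belong to resistance, to the clone or to its founder cell, and these cannot be told apart. Its libraries are described as biological replicates, and nothing says whether they came from separate thaws or selections, so p-values measure the spread between libraries.

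Library totals lay between 12436758 and 17524621 counts in the parental cells and were 10997625 and 15677914 in clone 2. The 2 clone 2 libraries were closer to each other than libraries within the other groups: a chi-square of their counts over genes gave 1.495 per degree of freedom, against 5.49 to 17.5 between parental libraries and 13.3 between those of clone 4. They differed by more than counting noise and were kept as 2 replicates; each count was also taken with both summed to 1 sample. Luminal markers (ESR1, PGR, GATA3, FOXA1, KRT8, KRT18, KRT19, EPCAM and CDH1) summed to 14500 to 17900 counts per 1000000 counts of the scaled library (CPM) in the parental libraries and to 9930 and 10400 CPM in clone 2, and 5 of the 9 fell. The 9 leukocyte markers summed to 8.49 to 10.2 CPM in the parental cells and to 162 and 154 CPM in clone 2, and 2 of the 5 tested rose. These were CD74 and ITGAM, an integrin chain of myeloid cells with 2 counts over the parental libraries and 106 over clone 2, a ratio of 78.7 (exact 95% interval 21.3 to 659). ITGAM had enough counts to be tested only through a resistant clone. The other 7 leukocyte markers summed to 3.67 to 4.9 CPM in the parental cells and to 4.83 and 6.22 CPM in clone 2. TYROBP was at 0 counts. In clone 4 the 9 leukocyte markers summed to 67.2 and 72.9 CPM. Endothelial markers summed to at most 0.681 CPM in any clone 2 library, with PECAM1 and TEK at 0. The 9 fibroblast markers summed to 40.4 to 43.7 CPM in the parental cells and to 238 and 214 CPM in clone 2. All 4 that were tested rose (COL1A1, COL3A1, DCN and LUM), DCN not with DESeq2 or without clone 2 replicate 2. COL3A1, DCN and LUM had enough counts to be tested only through clone 2, so their direction was fixed by the filter. COL1A2, not tested, had 2, 5 and 2 counts in the parental libraries and 1 and 4 in clone 2. The 6 other than collagens summed to 0.742 to 1.72 CPM and to 4.26 and 5.18 CPM, with FAP at 0. Most of the clone 2 sum came from LUM, with 33 and 60 counts, and DCN, with 9 and 17. THY1 had 7 and 10 counts in clone 2, against 3, 23 and 8 in the parental libraries. PDGFRA and PDGFRB had at most 1 count in any library of these groups. The part of other cells in the results below was not tested beyond these sums.

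Several of the gene systems described here are well understood in epithelial cells. Interferons bind receptors that activate a complex holding STAT2 and IRF9, which binds an interferon-stimulated response element upstream of antiviral genes such as the OAS and IFIT families. Interferon-gamma acts through CIITA on the class II antigen presentation genes, which epithelial cells otherwise keep low. EGF family ligands bind ERBB receptors and act through ERK on early response genes, among them the FOS and JUN subunits of AP-1, and on phosphatases that switch ERK off again. A change was called where the adjusted p of edgeR's quasi-likelihood test was below 0.05 over 17502 genes. Under that rule 3805 genes, 21.7% of those tested, were higher in clone 2 and 3638, or 20.8%, were lower. Every list below should be read against these shares. List members with almost no parental counts passed the count filter only through a resistant clone, so they could be called higher but hardly lower. Tested against a fold of 1.5 in place of no change, 8.51% of genes were higher and 3.93% lower, and list counts under this stricter test are given where they were much smaller. The calls of the usual test were 42.5% of the genes, and the median log2 fold change of all genes was 0.02. In the direct comparison of the clones, fitted in the same model, 36.5% of genes were called, 19.6% higher and 17.0% lower in clone 2. Comparisons of clone 2 and of clone 4 with the parental cells share the 3 parental libraries, so only this direct test was used for differences between the clones.

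Promoters are shown for 4 interferon-stimulated genes, since these genes moved together. Genes on a chromosome kept out of sequence printing were set aside before the choice. The 4 had the highest CPM in clone 2, not corrected for gene length, among the remaining genes that rose and had a window. RefSeq promoter windows on GRCh38.p14, from 250 bases before to 50 after the gene start, first-listed start of each gene, matched 44 of the 56 tested genes of the OAS, IFIT and IFITM, guanylate-binding and interferon-stimulated effector lists, and 43 of the 44 rose. Their median share of G and C bases was 53.2%, against 58.3% in 27305 windows of all genes. Among the printed windows it ran from 44.7% in IFI27 to 61.7% in MX1. Capitals mark the 50 bases after the gene start. Binding of a factor to these windows was not measured.
IFI27 (chr14:94110486-94110785, plus strand): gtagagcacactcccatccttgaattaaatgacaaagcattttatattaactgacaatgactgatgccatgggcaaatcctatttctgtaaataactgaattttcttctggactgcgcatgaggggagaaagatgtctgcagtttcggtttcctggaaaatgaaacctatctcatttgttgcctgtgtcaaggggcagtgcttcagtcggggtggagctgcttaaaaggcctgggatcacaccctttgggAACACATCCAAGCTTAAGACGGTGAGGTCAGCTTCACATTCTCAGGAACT
IFI6 (chr1:27672143-27672442, minus strand): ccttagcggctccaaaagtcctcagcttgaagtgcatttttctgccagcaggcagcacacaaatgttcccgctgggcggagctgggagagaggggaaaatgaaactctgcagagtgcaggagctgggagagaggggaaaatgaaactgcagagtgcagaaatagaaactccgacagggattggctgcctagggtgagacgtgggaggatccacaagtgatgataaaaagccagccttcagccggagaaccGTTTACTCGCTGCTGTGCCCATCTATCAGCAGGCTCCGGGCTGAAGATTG
MX1 (chr21:41420308-41420607, plus strand): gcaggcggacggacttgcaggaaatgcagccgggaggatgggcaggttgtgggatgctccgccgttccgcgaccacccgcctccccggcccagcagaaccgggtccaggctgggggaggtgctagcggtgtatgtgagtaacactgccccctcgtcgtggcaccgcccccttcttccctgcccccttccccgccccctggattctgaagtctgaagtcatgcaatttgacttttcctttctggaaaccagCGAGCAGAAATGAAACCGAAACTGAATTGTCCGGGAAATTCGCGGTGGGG
OAS3 (chr12:112938224-112938523, plus strand): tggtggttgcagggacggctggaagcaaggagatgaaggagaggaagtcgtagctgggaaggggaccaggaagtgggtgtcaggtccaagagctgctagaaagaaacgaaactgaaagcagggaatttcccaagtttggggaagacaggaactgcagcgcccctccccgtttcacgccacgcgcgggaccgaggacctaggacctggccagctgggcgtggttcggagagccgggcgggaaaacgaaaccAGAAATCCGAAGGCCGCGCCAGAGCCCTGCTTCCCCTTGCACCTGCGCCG

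Antiviral genes rose almost throughout in clone 2. Of the interferon-stimulated effectors, 37 of 39 tested rose and none fell, with a median log2 fold change of 2.04. OAS1, OAS2, OAS3 and OASL, of the oligoadenylate synthetase family that senses double-stranded RNA, rose, as did 7 of 8 IFIT and IFITM genes, which bind foreign RNA and block viral entry. IFI6, an antiviral protein of the endoplasmic reticulum, stood at 19, 14.2 and 9.82 CPM in the parental libraries and at 531 and 523 CPM in clone 2. The 2 groups did not overlap, and the log2 fold change was 5.21 (SE 0.19, adjusted p = 2.4e-10). OAS2 measured 14, 10.6 and 3.81 CPM in the parental cells and 197 and 201 CPM in clone 2, a log2 fold change of 4.40 (SE 0.44, adjusted p = 6.4e-04). OAS1 rose from 5.53, 5.75 and 3.81 to 100.3 and 98.5 CPM and OASL from 5.12, 3.68 and 1.61 to 40.1 and 36 CPM. Parental library 3 was the lowest for each of OAS1, OAS2, OASL, IFIT1 and IFI6, and clone 2 lay far above all 3 parental values.

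IFIT1, which recognises RNA without a methylated cap, rose from 11.6, 7.77 and 3.59 to 202 and 201 CPM, with a log2 fold change of 4.73 (SE 0.43, adjusted p = 4.3e-04). IFITM3, which blocks viral fusion in endosomes, rose from 5.45, 6.11 and 3.44 to 67.9 and 63.8 CPM. IFI44L had 0 counts in all 3 parental libraries and 147 and 211 counts in clone 2, at least 177-fold higher when the parental sum is set to 3 counts. MX1, a dynamin-like antiviral GTPase whose promoter is among those printed, stood at 36.1, 27.1 and 20.2 CPM in the parental cells and 462 and 449 CPM in clone 2. Between the clones, where 36.5% of all genes were called, no OAS gene was called, 3 of the 8 IFIT and IFITM genes were lower in clone 2, and of the 39 effectors 9 were higher and 5 lower. IFITM1 was lower in clone 2 than in clone 4, with a log2 difference of -1.07 (adjusted p = 2.0e-04).

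Upstream of these genes, 9 of 11 nucleic acid sensors and adaptors rose. The RNA sensors DDX58 (RIG-I), IFIH1 (MDA5) and DHX58 (LGP2) rose by 2.25, 1.80 and 1.98 on the log2 scale. TMEM173, which encodes the DNA-sensing adaptor STING, rose from 0.495, 0.593 and 0.513 to 4.1 and 4.25 CPM, and IFI16, a DNA sensor, from 0.165, 0.237 and 0.22 to 1.71 and 1.59 CPM. MYD88, the adaptor of most Toll-like receptors, fell, with a log2 fold change of -0.41, and this call was lost without clone 2 replicate 2. The interferons themselves were scarce. Of 7 ligands and receptors tested 3 rose and 1 fell. Of the ligands only IFNL1, a type III interferon, had enough counts to be tested, with 2 counts over the parental libraries and 25 over those of clone 2, a ratio of 18.6 (exact 95% interval 4.63 to 162). Of its receptor subunits IFNLR1 rose, by 0.63 on the log2 scale (SE 0.22, adjusted p = 0.037), and IL10RB fell from 23.3, 24.4 and 23.5 to 11.8 and 11 CPM, with a log2 fold change of -1.06 (SE 0.13, adjusted p = 2.5e-05). The interferon-gamma receptor chain IFNGR1 rose by 0.60 on the log2 scale (SE 0.13, adjusted p = 0.0017). The IFNLR1 call was lost with DESeq2, with the clone 2 libraries summed and without parental replicate 1, parental replicate 3 or clone 2 replicate 1, and the IFNGR1 call without clone 2 replicate 2; neither passed against a fold of 1.5. IFNAR1 was not called, at 63.6 CPM in the parental cells and 57.9 CPM in clone 2.

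Class II antigen presentation genes rose in clone 2, and several rose further there than in clone 4. Of 11 tested, 9 rose and none fell, with a median log2 fold change of 2.63. HLA-DRA, the alpha chain of HLA-DR, measured 0.248, 0.356 and 0.44 CPM in the parental libraries and 28.6 and 30.9 CPM in clone 2. CD74, the invariant chain that occupies class II molecules until they are loaded, measured 4.62, 6.52 and 4.62 CPM in the parental libraries and 152 and 146 CPM in clone 2. The parental and clone 2 values were far apart for both genes, with log2 fold changes of 6.37 (SE 0.21, adjusted p = 1.1e-10) and 4.80 (SE 0.14, adjusted p = 2.7e-11). In clone 4, HLA-DRA stood at 8.24 and 9.1 CPM and CD74 at 58.2 and 64.9 CPM, above the parental cells and below clone 2. The difference between the clones was 1.78 for HLA-DRA (adjusted p = 5.1e-06) and 1.27 for CD74 (adjusted p = 1.7e-05). HLA-DQA1 rose from 0.0825, 0.178 and 0.147 to 8.45 and 9.14 CPM and HLA-DPA1 from 0.413, 0.593 and 0.44 to 12.5 and 10.4 CPM. HLA-DPB1 had 3 counts over the parental libraries and 90 over clone 2, a ratio of 44.6 (exact 95% interval 14.8 to 220.0). CIITA, the master coactivator of these genes, rose less, from 10.6, 11.6 and 10.8 to 18.1 and 16.6 CPM. HLA-DMA and HLA-DRB5 were not called, and HLA genes are similar enough in sequence that reads can be split between them. Of the 9 that rose, HLA-DRA, HLA-DQA1, HLA-DPA1 and HLA-DPB1 had enough counts to be tested only through a resistant clone. They could hardly have been called lower.

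All 4 guanylate-binding proteins tested, GTPases that interferon-gamma induces, rose: GBP1 from 0.66, 0.356 and 0.66 to 6.49 and 6.08 CPM, with GBP2, GBP3 and GBP4 higher by 2.95, 3.38 and 2.30 on the log2 scale. GBP1, GBP2 and GBP3 were also higher than in clone 4, and for GBP4 that difference was not called (adjusted p = 0.06). GBP1 had enough counts to be tested only through a resistant clone, so it could hardly have been called lower. The 5 immunoproteasome genes, which cut peptides for class I molecules, rose too, among them PSMB8 from 32.4, 39.1 and 28.6 to 77.4 and 76.2 CPM and PSMB9 from 9.98, 9.55 and 11 to 21.8 and 20.8 CPM. Here the order of the clones was the other way round: PSMB9, PSME1 and PSME2 were lower in clone 2 than in clone 4, with log2 differences of -0.79, -0.69 and -0.84. The rise of PSMB10 was lost with the clone 2 libraries summed, and tested against a fold of 1.5 the list had 3 rises. PSME1 and PSME2 were among the most abundant of 30 neighbouring genes on chromosome 14, from AJUBA to REC8. Of these 25 were higher and 0 lower, with median log2 fold changes of 0.77 in clone 2 and 1.13 in clone 4. Both medians use the same parental libraries. The part of chromosome position in the rises of PSME1 and PSME2 was not tested.

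**Figure D1:**
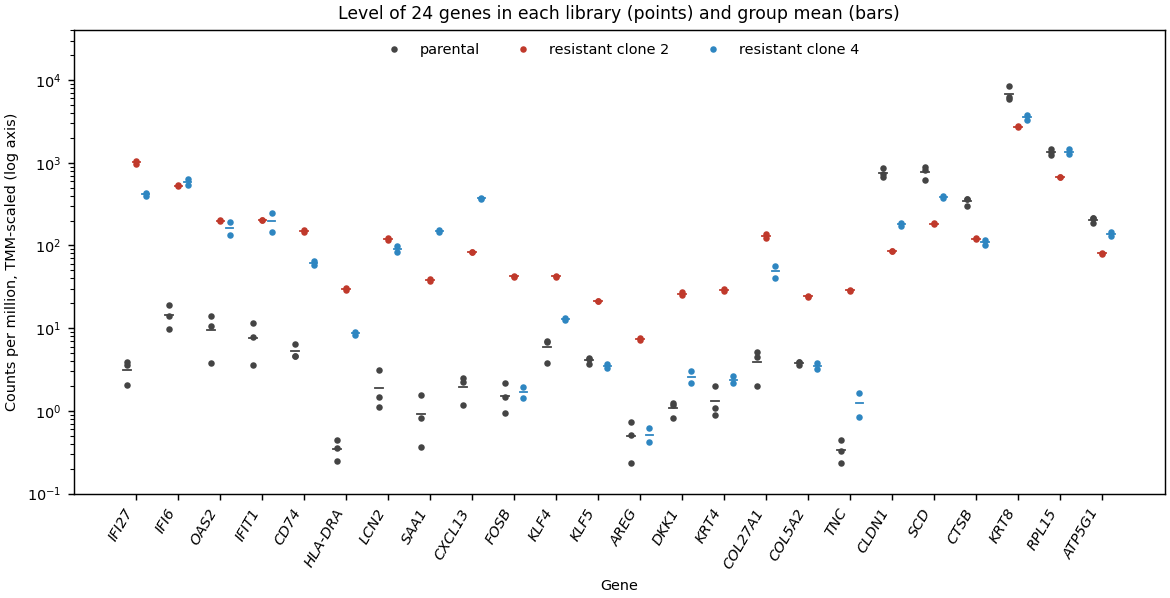
Level of 24 genes in CPM (log axis) in each parental (grey), resistant clone 2 (red) and resistant clone 4 (blue) library, with bars at the group means. The 2 clone 2 points nearly coincide for each gene; from IFI27 to TNC they lie above all parental points, and from CLDN1 to ATP5G1 below them.

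Chemokines also rose. Of 34 chemokines listed, 11 had enough counts to be tested, and of these 10 rose and 1 fell. Members such as CXCL10 had too few parental counts and could be tested only because a resistant clone was higher. CXCL13, which attracts B cells, was at 2.48, 2.25 and 1.17 CPM in the parental libraries and at 82.3 and 84.3 CPM in clone 2, and it stood higher still in clone 4, at 377 and 367 CPM. Clone 2 lay between the other groups without overlap, with log2 differences of 5.40 from the parental cells (SE 0.17, adjusted p = 6.0e-11) and -2.16 from clone 4 (adjusted p = 3.1e-07). CCL28, a chemokine of mucosal epithelia, rose from 2.97, 3.2 and 2.79 to 28.3 and 22.9 CPM and was higher than in clone 4 by 2.27 (adjusted p = 1.6e-06). CXCL10, which attracts T cells, had 1 count over the parental libraries and 47 over clone 2, a ratio of 69.8 (exact 95% interval 11.9 to 2820). CXCL12 fell, from 159, 146 and 118 to 82.8 and 93.7 CPM. LCN2, which binds bacterial iron carriers, stood at 1.49, 3.14 and 1.1 CPM in the parental libraries and at 124 and 118 CPM in clone 2, with a log2 fold change of 5.92 (SE 0.22, adjusted p = 2.4e-10). SAA1, an acute-phase apolipoprotein, rose from 0.825, 1.54 and 0.366 to 39.6 and 37.2 CPM, and clone 4 stood above both at 145 and 152 CPM. S100A8 and S100A9, which form calprotectin, rose from 0.438 to 19.2 CPM and from 3.32 to 27.7 CPM in the mean. Other S100 genes went down: of the 12 tested 4 rose and 5 fell (1 against a fold of 1.5), with S100A10 from 544, 560.0 and 668 to 242 and 229 CPM.

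Complement component C3 rose from 7.18, 9.19 and 7.11 to 82.5 and 78.4 CPM, and CFB, a protease of the alternative pathway, by 4.40 on the log2 scale. CD55, which protects cells from complement, fell, with a log2 fold change of -1.10. Of 21 genes of the TNF and TNF receptor superfamilies, 16 rose and 1 fell. TNFSF15 rose from 2.31, 2.08 and 3.08 to 13.8 and 16.6 CPM, TNFRSF14 by 2.23 and TNFRSF11A, the RANK receptor, by 2.44 on the log2 scale, and the death receptor FAS fell from 26.6, 25.6 and 38.1 to 16 and 17.6 CPM. Each of these 3 receptors and ligands that rose was also higher than in clone 4. Tested against a fold of 1.5, 7 genes of the list were higher and none lower. Of the NF-kB pathway, 14 of 22 genes rose; NFKBIA, the inhibitor that NF-kB itself induces, stood at 46.8, 39.1 and 37.3 CPM in the parental cells and 202 and 188 CPM in clone 2, and NFKB1, a subunit, at 12, 15.2 and 9.97 and 21.2 and 23.5 CPM. Between the clones 4 genes of that list were higher and 6 lower in clone 2.

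The ligands of the EGF receptor rose in clone 2 and differed from clone 4. Of 11 listed, 7 had enough counts to be tested. Of these 6 rose, 3 of them by more than 1.5-fold when tested against that size. All 6 were also higher than in clone 4. Amphiregulin (AREG) was at 0.743, 0.237 and 0.513 CPM in the parental libraries, 7.51 and 7.14 CPM in clone 2 and 0.618 and 0.417 CPM in clone 4. Only clone 2 stood apart, with a log2 fold change of 3.93 (SE 0.31, adjusted p = 4.3e-07) against the parental cells and a difference of 3.77 from clone 4 (adjusted p = 8.1e-06). Epigen (EPGN) rose from 0.165, 0.119 and 0.22 to 0.853 and 1.36 CPM and HBEGF from 1.16, 1.13 and 0.806 to 3.24 and 2.89 CPM. AREG had enough counts to be tested only through clone 2, and EPGN only through a resistant clone, so the filter fixed their direction. TGFA rose from 15.7, 14.4 and 14.3 to 22.9 and 24.7 CPM and EGF from 9.9, 12.6 and 7.62 to 17.9 and 17.3 CPM, while NRG4 was not called, at 4.68 and 4.99 CPM. Betacellulin (BTC) lost its call with DESeq2 and without clone 2 replicate 2. Of the receptors, ERBB3 fell from 423, 419 and 361 to 247 and 251 CPM and ERBB4 rose from 17.2, 18.3 and 14.7 to 38.6 and 38.7 CPM. The smaller changes of EGFR (0.47) and ERBB2 (-0.31 on the log2 scale) were not called with the clone 2 libraries summed.

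Genes that restrain ERK also rose. Of 14 ERK phosphatases and Sprouty-type inhibitors, 10 rose and none fell, and 3 of the rises passed a test against a fold of 1.5. The list's median log2 fold change was 0.75. SPRY4 rose from 0.495, 0.712 and 0.586 to 8.87 and 7.32 CPM and DUSP6 from 16, 16.2 and 11.9 to 26.9 and 27.1 CPM, and DUSP4 rose by 0.74 on the log2 scale. For these 3 the clone 2 values were above those of clone 4 by 0.78, 0.74 and 0.39 on the log2 scale, each called. SPRY2, SPRED1, SPRED2 and DUSP5 were not called. Of 15 AP-1 factors 12 rose and none fell. JUN stood at 24.3, 25.6 and 24 CPM in the parental libraries and 117 and 115 CPM in clone 2, with a log2 fold change of 2.23 (SE 0.10, adjusted p = 1.7e-09), and it was above clone 4 (42.5 and 37.6 CPM) by 1.53 (adjusted p = 9.6e-07). JUNB rose from 24.3, 19.4 and 24.1 to 103 and 98 CPM and FOSL2 from 8.33, 7.47 and 6.96 to 17.6 and 16.2 CPM, while JUND was not called, at 65.6 and 69.3 CPM. BATF2, an interferon-induced member, rose by 2.85 and did not differ by call from clone 4 (adjusted p = 0.6).

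Krüppel-like factors, zinc finger regulators of epithelial growth and differentiation, rose in 11 of the 19 KLF and SP genes tested and fell in 2. KLF4 was at 7.01, 6.82 and 3.81 CPM in the parental libraries, 42.9 and 41.8 CPM in clone 2 and 13.1 and 12.5 CPM in clone 4. KLF5 was at 4.37, 4.27 and 3.74 CPM in the parental libraries, 21.1 and 21.2 CPM in clone 2 and 3.3 and 3.67 CPM in clone 4. Clone 2 was the highest group for both, and for KLF5 clone 4 lay just below the parental range; the adjusted p between the clones was 2.8e-05 for KLF4 and 5.1e-07 for KLF5. KLF6 rose from 43.6, 40.9 and 32.9 to 102 and 109 CPM and KLF10, which TGF-beta induces, from 28.5, 22.8 and 29.4 to 72.1 and 70.0 CPM. KLF12 fell from 6.19, 4.86 and 5.57 to 1.19 and 0.767 CPM. The 11 higher calls became 7, and the 2 lower calls 1, without clone 2 replicate 1 or without replicate 2; the lower calls were also 1 with the libraries summed, and against a fold of 1.5 there were 5 higher and 1 lower. The receptor NR4A1, also an early response gene, rose from 21.8, 20.9 and 17.4 to 41.3 and 42.5 CPM.

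**Figure D2:**
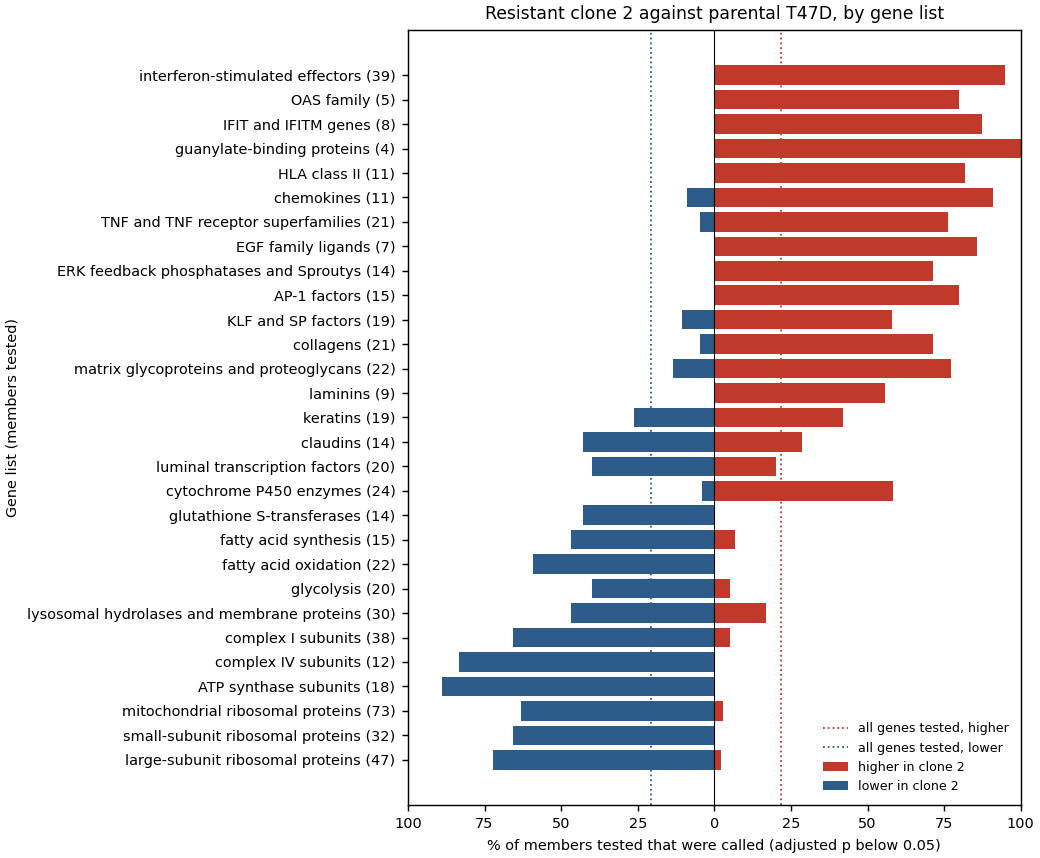
Share of the tested members of 29 gene lists called higher (red, to the right) or lower (blue, to the left) in resistant clone 2 than in parental T47D, in percent; dotted lines mark the shares of all genes tested, 21.7% higher and 20.8% lower. Interferon, class II, chemokine and EGF ligand lists lie far to the right and ribosomal and respiratory lists far to the left.

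Epithelial structure genes changed in both directions. KRT8 and KRT18, the paired keratins of luminal cells, fell: KRT8 from 5870, 6284 and 8451 to 2808 and 2677 CPM and KRT18 from 2396, 2701 and 3607 to 1426 and 1370 CPM. The log2 fold changes were -1.32 for KRT8 (SE 0.15, adjusted p = 1.3e-05) and -1.05 for KRT18 (SE 0.15, adjusted p = 1.1e-04), while KRT19 was not called, at 3696 and 3921 CPM. KRT4 and KRT13, the pair of stratified mucosa, rose from 1.07, 0.89 and 1.98 to 30.1 and 28 CPM and from 1.16, 1.13 and 0.806 to 7.51 and 5.78 CPM. In clone 4 KRT4 was at 2.61 and 2.17 CPM, below clone 2 by 3.59 (adjusted p = 4.1e-07). Of 19 keratins 8 rose and 5 fell, and 3 fell without clone 2 replicate 2 or against a fold of 1.5. The 9 basal markers summed to 92.4 to 151 CPM in the parental libraries and to 266 and 271 CPM in clone 2. KRT15 made up most of each sum. Of the 6 tested 3 rose and 1, ACTA2, fell, with a log2 fold change of -0.55. That fall was not called with the clone 2 libraries summed, against a fold of 1.5 or without clone 2 replicate 2. TP63, the regulator of basal cells, was near its detection limit, at 0.413, 0.178 and 0.366 CPM in the parental cells. In clone 2 TP63 stood at 1.19 and 1.59 CPM, and its call was lost without clone 2 replicate 2. TP63 had enough counts to be tested only through clone 2, so its direction was fixed by the filter.

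Of 14 claudins, the strand proteins of tight junctions, 4 rose and 6 fell. CLDN1 was at 724, 676 and 871 CPM in the parental libraries, 85.6 and 86.1 CPM in clone 2 and 189 and 174 CPM in clone 4. All 3 groups were separate and clone 2 was the lowest, with log2 differences of -3.14 from the parental cells (SE 0.13, adjusted p = 7.3e-10) and -1.08 from clone 4 (adjusted p = 4.7e-05). CLDN4 rose from 298, 323 and 301 to 437 and 439.5 CPM, and CLDN3 and CLDN7 were not called. The 4 higher calls became 2 without parental replicate 2 or without clone 2 replicate 2, and 1 against a fold of 1.5.

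Among 20 luminal transcription factors 4 rose and 8 fell, and 5 fell with the clone 2 libraries summed or with either left out, and 3 against a fold of 1.5. ELF3 and EHF, ETS factors of differentiated epithelium, rose from 55, 53.4 and 56.9 to 141 and 146 CPM and from 45.9, 39.6 and 29.3 to 116 and 113 CPM. LMO4, a LIM-domain regulator, stood at 177, 181 and 266 CPM in the parental libraries, 428 and 429 CPM in clone 2 and 102 and 99.1 CPM in clone 4. The clones thus lay on opposite sides of the parental cells, 2.09 apart on the log2 scale (adjusted p = 2.4e-06). MYB fell from 26.2, 22.5 and 16.3 to 9.04 and 7.14 CPM. ESR1, the estrogen receptor, fell from 183, 169 and 176 to 88.4 and 95 CPM, whereas clone 4 stood at 179 and 162 CPM. GATA3 and GRHL2 were not called, at 877 and 847 CPM and at 173 and 160.0 CPM. Of the other nuclear receptors the vitamin D receptor VDR rose from 38, 41.1 and 40.5 to 90.0 and 87.5 CPM and NR5A2 by 2.10 on the log2 scale.

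Extracellular matrix genes rose broadly. Of 21 collagens 15 rose and 1 fell, with a median log2 fold change of 1.39; of 22 matrix glycoproteins and proteoglycans 17 rose and 3 fell, and without clone 2 replicate 1 only 1 of these 3 was called. Against a fold of 1.5 the glycoproteins had 10 rises and 1 fall. COL27A1, a fibrillar collagen of cartilage, was at 4.54, 5.1 and 1.98 CPM in the parental libraries and 138 and 124 CPM in clone 2, with a log2 fold change of 5.06 (SE 0.25, adjusted p = 7.4e-08). COL3A1, a fibrillar collagen made by fibroblasts, had 1 count over the parental libraries, 1209 and 1499 counts in clone 2 and 0 counts in clone 4, a ratio to the parental cells of 4020 (exact 95% interval 721 to 159000). COL5A2, a minor chain of collagen fibrils, rose from 3.63, 3.86 and 3.88 to 24.8 and 23.7 CPM, while clone 4 stayed at 3.23 and 3.76 CPM. The difference between the clones was 2.80 on the log2 scale (adjusted p = 2.3e-07). COL1A1 rose from 39.5, 41.6 and 41.3 to 131 and 121 CPM, COL16A1 by 2.74 and COL6A1 by 1.73 on the log2 scale. COL4A5 and COL7A1 were not called.

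SPARC, a collagen-binding glycoprotein, rose from 0.33, 0.0593 and 0 to 4.52 and 4.54 CPM, and lumican (LUM) from 0.248, 0.237 and 0.66 to 2.82 and 3.54 CPM. SPARC stood at 0.481 and 0.25 CPM in clone 4 and LUM at 0.137 and 0 CPM, and clone 2 was above clone 4 in both (adjusted p = 8.8e-05 and 6.1e-05). Both genes had enough counts to be tested only through clone 2, so their direction was fixed by the filter. SDC2, a heparan sulfate proteoglycan of the cell surface, stood at 22.4, 18.7 and 18.5 CPM in the parental libraries, 70.2 and 70.8 CPM in clone 2 and 15.2 and 14.4 CPM in clone 4, and only clone 2 was high. FN1 was not called, at 29.6 and 29.2 CPM. LAMB1, a laminin chain of basement membranes, rose from 36.1, 33.6 and 42.4 to 91 and 82.8 CPM; 5 of 9 laminins rose, 3 with the clone 2 libraries summed or without parental replicate 2 and 2 without either clone 2 library or against a fold of 1.5. TIMP3, a matrix-bound inhibitor of metalloproteinases, rose from 0.743, 0.534 and 0.586 to 11 and 11.2 CPM and measured 12.6 and 14.4 CPM in clone 4, a difference that was not called (adjusted p = 0.22). COL1A1, COL3A1, decorin (DCN) and LUM are also the fibroblast markers that rose, and the sums of that list are given above; its part in the matrix result was not tested.

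Several secreted growth regulators rose. DKK1, a secreted Wnt inhibitor, was at 0.825, 1.19 and 1.25 CPM in the parental libraries, 27.1 and 25.1 CPM in clone 2 and 3.02 and 2.17 CPM in clone 4. Clone 2 was the highest group, by 4.56 over the parental cells (SE 0.20, adjusted p = 1.3e-09) and 3.31 over clone 4 (adjusted p = 2.3e-07). WNT5A, a ligand of non-canonical Wnt signalling, rose from 0.743, 0.83 and 0.806 to 14.8 and 16 CPM, and clone 4 was higher still at 77 and 71.5 CPM. WNT4 rose from 2.23, 2.67 and 4.1 to 16 and 17.8 CPM. IGFBP3, which binds insulin-like growth factors, rose from 0.99, 0.415 and 0.147 to 29.1 and 27.1 CPM, and IGF2 from 1.73, 1.48 and 2.35 to 7.77 and 7.14 CPM. IRS1, the adaptor of the IGF1 receptor, was at 14.9, 12 and 10.6 CPM in the parental libraries, 37.9 and 41.5 CPM in clone 2 and 5.22 and 4.01 CPM in clone 4. The clones changed in opposite directions from the parental level, 3.09 apart (adjusted p = 2.1e-07). IGF1R itself fell from 107, 103 and 108 to 68.9 and 73.3 CPM.

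ID3, which blocks basic helix-loop-helix factors and is a target of BMP signalling, rose by 1.85 on the log2 scale (SE 0.19, adjusted p = 1.9e-05), and the ligand gene BMP7 from 0.33, 0.534 and 1.25 to 6.66 and 6.9 CPM. ID1 was not called: it measured 41.3, 38.9 and 105 CPM in the parental libraries, of which the third stood apart, and 201 and 196 CPM in clone 2. RET, a receptor tyrosine kinase that estrogen induces, rose from 2.97, 3.2 and 3.52 to 10.1 and 9.03 CPM. Its co-receptor GFRA1 fell from 3.3, 2.49 and 1.17 to 0.171 and 0.236 CPM in clone 2 and was 10.9 and 11.4 CPM in clone 4, a difference between the clones of -5.67 (adjusted p = 2.4e-06). NRP1, a co-receptor for VEGF and semaphorins, had 0 counts in the parental libraries and 90 over clone 2, at least 44.6-fold higher.

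Lipid and fuel metabolism genes fell more often than they rose. Of 15 fatty acid synthesis genes 7 fell and 1 rose, and the rise was lost with DESeq2, with the clone 2 libraries summed and without clone 2 replicate 1; 3 falls passed a test against a fold of 1.5. SCD, the desaturase that makes oleate, was at 887, 811 and 619 CPM in the parental libraries, 184 and 179.6 CPM in clone 2 and 393 and 373 CPM in clone 4. SCD was lowest in clone 2, with log2 differences of -2.09 from the parental cells (SE 0.14, adjusted p = 1.1e-07) and -1.07 from clone 4 (adjusted p = 1.2e-04). FADS1 and FADS2, which desaturate longer chains, fell from 66.5, 59.4 and 58.4 to 33.6 and 34.2 CPM and from 70.9, 72.7 and 40.4 to 25.5 and 25 CPM. The elongase ELOVL6 fell from 40.5, 36.1 and 41.3 to 23.7 and 21.2 CPM, while FASN and ACLY were not called. Of 22 fatty acid oxidation genes 13 fell and none rose, with 7 lower without clone 2 replicate 1, 8 without replicate 2 and 1 against a fold of 1.5. HADH fell from 121, 113 and 109 to 68.5 and 71 CPM and HSD17B4, a peroxisomal enzyme, from 177, 182 and 156 to 111 and 107 CPM. ACOX2, a peroxisomal oxidase of branched chains and bile acid precursors, fell from 19.5, 17.2 and 13.8 to 5.03 and 3.24 CPM, with clone 4 at 19.5 and 16.7 CPM (-2.16 between the clones, adjusted p = 1.8e-05). CPT1A, the carnitine gate of mitochondria, was not called.

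Of 20 glycolysis genes 8 fell and 1 rose; the count of falls was 4 with the clone 2 libraries summed, 5 without parental replicate 1, 4 without clone 2 replicate 1, 3 without clone 2 replicate 2 and 1 against a fold of 1.5. The rise became 0 with the libraries summed or without either clone 2 library, and 2 without parental replicate 1. SLC16A3, the lactate exporter MCT4, fell from 78.5, 75.4 and 61.2 to 24.7 and 19 CPM, a log2 fold change of -1.73 (SE 0.14, adjusted p = 7.5e-07). LDHA fell from 569, 519.7 and 503 to 344 and 351 CPM. GAPDH, HK1 and PKM were not called.

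Ribosomal and respiratory genes were lower as groups, in clone 2 against the parental cells and against clone 4. Of the large-subunit ribosomal proteins 34 of 47 fell and 1 rose, and of the small-subunit ones 21 of 32 fell and none rose, with median log2 fold changes of -0.47 and -0.46. RPL15 was at 1362, 1456 and 1247 CPM in the parental libraries, 671 and 675 CPM in clone 2 and 1263 and 1453 CPM in clone 4. Clone 2 was the lowest group and the other groups overlapped, with a log2 fold change of -1.01 (SE 0.11, adjusted p = 9.4e-06). RPL32 fell from 1403, 1658 and 1441 to 794 and 782 CPM and RPSA from 1085, 1197 and 1048 to 584 and 586 CPM. RPS12, RPS19, RPS27 and RPL13 were not called. RPL32 was the most abundant of 30 neighbouring genes on chromosome 3, from JAGN1 to LSM3, with 22 lower and 0 higher. Their median log2 fold change was -0.59 in clone 2 and -0.08 in clone 4, each against the parental cells. RPL13 was the most abundant of 30 on chromosome 16, from PIEZO1 to CENPBD1, with 23 higher and 0 lower. The part of chromosome position in the ribosomal result was not tested. Against clone 4 the counts were 33 lower and 2 higher for the large subunit and 21 lower and none higher for the small subunit. Tested against a fold of 1.5, 5 large-subunit and 1 small-subunit gene were lower. Of the mitochondrial ribosomal proteins 46 of 73 fell and 2 rose, among them MRPL22 from 111, 119.6 and 103 to 63.6 and 58.5 CPM, and 28 fell with the clone 2 libraries summed, 25 without clone 2 replicate 2 and 5 against a fold of 1.5. The large-subunit count was 21 without clone 2 replicate 2, and its single rise became 0 with the libraries summed or without parental replicate 1, parental replicate 2 or either clone 2 library, and 2 without parental replicate 3.

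In the respiratory chain 25 of 38 complex I genes fell and 2 rose, 10 of 12 complex IV genes fell, and 16 of 18 genes with ATP synthase (ATP5) symbols fell; against a fold of 1.5 these falls numbered 2, 3 and 6. The ATP5 list was matched by symbol and holds the pseudogene ATP5G1P4 and ATP5SL, which is not a subunit, and both are among the 16. NDUFA2 fell from 201, 261 and 215 to 109 and 105 CPM, COX6B1 from 238, 267 and 267 to 138 and 136 CPM and ATP5I from 154, 187 and 177 to 82.3 and 85.6 CPM. ATP5G1, which makes the rotor ring, fell from 188, 213 and 214 to 81.6 and 78.5 CPM, a log2 fold change of -1.36 (SE 0.11, adjusted p = 4.3e-07). The 2 complex I rises became 0 with DESeq2, with the clone 2 libraries summed or without parental replicate 1, parental replicate 2 or either clone 2 library, and 1 without parental replicate 3. Of the 13 genes of the mitochondrial genome 3 fell and 1 rose: MT-ND3, MT-ND5 and MT-ND6 fell, with log2 fold changes of -1.07, -0.56 and -0.78, and MT-CO2 rose by 0.35. The MT-CO2 call was lost with the clone 2 libraries summed and without parental replicate 1 or either clone 2 library, and 5 genes fell without either clone 4 library.

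These fold changes were small, and transcript length and level moved with them. Among genes of at least 2 log2 CPM split into 5 equal classes by longest annotated transcript, the median log2 fold change of clone 2 against the parental cells was -0.22, -0.10, -0.05, 0.03 and 0.04 from the shortest to the longest. The same medians between the clones were -0.27, -0.09, 0.03, 0.10 and 0.18, and for clone 4 against the parental cells 0.08, 0.02, -0.07, -0.06 and -0.13. By level the medians of clone 2 against the parental cells went from 0.10 in the lowest class to -0.21 in the highest. The shortest class had a median transcript of 1306 bases, and the next class one of 2455 bases. The median member measured 1006 bases in the complex IV list, 1350 in complex I, 1575 in the small ribosomal subunit, 1748 in the mitochondrial ribosome, 1962 in the large subunit and 2084 in the ATP5 list. The part of length or of level in the ribosomal and respiratory results was not tested.

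**Figure D3:**
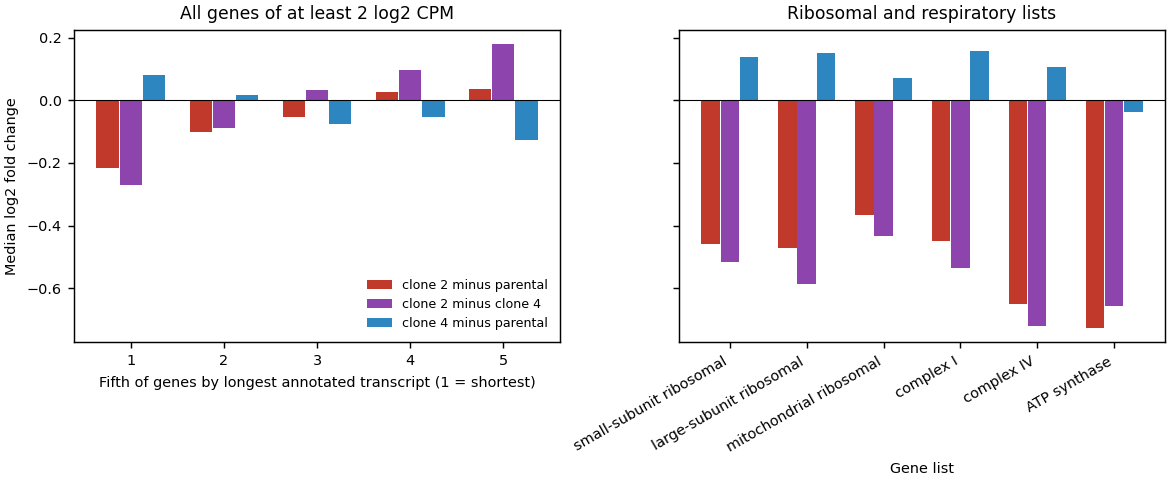
Left, median log2 fold change of genes of at least 2 log2 CPM in 5 classes of transcript length (1 = shortest) for clone 2 minus parental (red), clone 2 minus clone 4 (purple) and clone 4 minus parental (blue); right, the same medians for 6 ribosomal and respiratory gene lists. The shortest class lies at -0.22 and -0.27 in the comparisons of clone 2 and at 0.08 in that of clone 4, and all 6 lists lie further below 0 than it in both comparisons of clone 2.

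In the endoplasmic reticulum, 9 of 20 genes of the unfolded protein response fell and 1 rose. DNAJC3, a co-chaperone that inhibits the kinase PERK, fell from 137, 138 and 86.9 to 38.6 and 39.2 CPM, and calreticulin (CALR) from 2439, 2909 and 1892 to 1187 and 1136 CPM. The chaperone BiP (HSPA5) was not called, and measured 3070, 3795 and 1235 CPM in the parental libraries, the last close to the 1164 and 1122 CPM of clone 2. MANF and HYOU1 had the same order of libraries, and without parental replicate 3 the count of falls was 17, against 5 without clone 2 replicate 2 or with the clone 2 libraries summed and 3 against a fold of 1.5. Of 30 lysosomal genes 14 fell and 5 rose. The falls numbered 8 with the clone 2 libraries summed, 9 without parental replicate 1, 8 without clone 2 replicate 1, 6 without clone 2 replicate 2 and 3 against a fold of 1.5. The rises numbered 1 with the libraries summed, without clone 2 replicate 1 or against a fold of 1.5, and 2 without clone 2 replicate 2. The protease gene CTSB fell from 362, 360.2 and 304 to 124 and 119 CPM, a log2 fold change of -1.49 (SE 0.11, adjusted p = 3.3e-07). LAMP1, a lysosomal membrane protein encoded on chromosome 13, was at 338, 326 and 308 CPM in the parental libraries, 162 and 165 CPM in clone 2 and 91.2 and 74 CPM in clone 4. CTSS, which trims the chaperone of class II molecules, rose from 0.495, 0.593 and 0.293 to 1.79 and 2.71 CPM.

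Genes for handling foreign compounds moved by family. Of 24 cytochrome P450 genes 14 rose and 1 fell, and 9 rose without clone 2 replicate 2 or against a fold of 1.5. CYP1A1, the classical target of the aryl hydrocarbon receptor, was at 0.165, 0.0593 and 0.293 CPM in the parental libraries, 12.5 and 12.4 CPM in clone 2 and 0.824 and 1.17 CPM in clone 4. Clone 2 was the highest group, by 6.17 over the parental cells (SE 0.32, adjusted p = 7.5e-09) and 3.65 over clone 4 (adjusted p = 1.5e-06). CYP1B1, which hydroxylates estradiol, rose from 71.1, 55 and 103 to 289 and 318 CPM, and CYP27A1 from 2.06, 2.31 and 1.39 to 8.87 and 9.5 CPM. Of 14 glutathione transferases 6 fell and none rose (2 falls against a fold of 1.5), with MGST2 from 27.4, 32.5 and 26.2 to 10.2 and 10.3 CPM and GSTK1 from 129.6, 141 and 108 to 57.9 and 51.6 CPM. Among 34 ABC transporters 10 rose and 5 fell, or 6 and 2 against a fold of 1.5; ABCC3 rose by 3.19 on the log2 scale and ABCC5, another multidrug resistance-associated protein, fell from 308, 362 and 277 to 133 and 133 CPM.

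Some genes had no counts left in clone 2. PKIA, an inhibitor of cyclic AMP-dependent protein kinase, had 1918, 2374 and 1917 counts in the parental libraries and 0 in both clone 2 libraries, at least 1390-fold lower with the clone 2 sum set to 3 counts. Clone 4 kept 85 and 67 counts, and the difference between the clones was called (adjusted p = 3.3e-07). FZD6, a Wnt receptor, had 67, 94 and 83 counts in the parental cells and 0 in clone 2, at least 54.7-fold lower. MAGEA6, a cancer-testis antigen, had 602, 752 and 681 counts in the parental cells and 0 in clone 2, at least 457-fold lower, with the caution that its copies share sequence. One gene that the files list without a name, ENSG00000087916, had 0 counts in the parental libraries and 233 and 335 in clone 2.

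PKIA stood in a run of lower neighbours on chromosome 8. In annotated gene order PKIA-AS1, PKIA, RP11-594N15.3, ZC2HC1A, IL7 and RP11-578O24.2 were all called lower, and the tested genes on either side, PEX2 and HEY1, were not called. ZC2HC1A, a zinc finger gene, fell from a mean of 124 to 5.11 CPM, and IL7, a cytokine that lymphocytes need, from 35.4, 34.5 and 38.8 to 1.37 and 2.06 CPM. Clone 4 lay between, at 21.1 and 17.9 CPM for ZC2HC1A and 6.25 and 4.01 CPM for IL7, and both differed from clone 2 (adjusted p = 3.6e-06 and 6.4e-04). PEX2 measured 41.3, 41.9 and 37.2 CPM in the parental cells and 39.4 and 34.9 CPM in clone 2. PKIA-AS1 is named as the antisense RNA of PKIA and the strand setting of the counts is not given in the sources used here, so reads of the 2 cannot be told apart.

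A second run lay near the end of the long arm of chromosome X, where GABRE, MAGEA10, GABRA3, MAGEA3, CSAG1, MAGEA12, MAGEA6, CETN2, NSDHL and ZNF185 were all called lower. GABRA3, a GABA receptor subunit, fell from 23.9, 19.5 and 19 to 2.39 and 2.24 CPM, and CETN2, a centrosome protein, from a mean of 119 to 41.6 CPM. NSDHL, an enzyme of cholesterol synthesis, fell from 85.8, 96.2 and 65.2 to 18.8 and 18.1 CPM. The falls of the MAGE genes were far deeper than those of CETN2, NSDHL and ZNF185. MAGEA1 went the other way, from 8.09, 7.35 and 8.14 to 16.2 and 13.5 CPM, and was nearly absent in clone 4 at 0.206 and 0.0835 CPM. In the widest view, 26 of the 30 genes of at least 2 log2 CPM from FAM127A to NSDHL were lower and none higher, with a median log2 fold change of -0.96 in clone 2 and -1.07 in clone 4; both values use the same parental libraries.

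**Figure D4:**
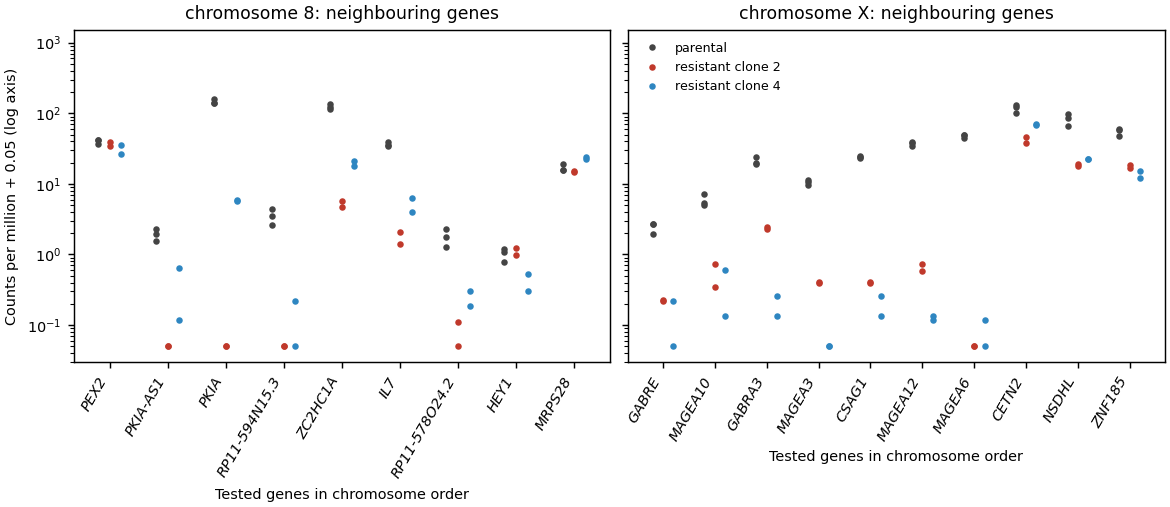
CPM plus 0.05 (log axis) of neighbouring tested genes on chromosomes 8 and X in each parental (grey), clone 2 (red) and clone 4 (blue) library; points on the 0.05 line are 0 counts. From PKIA-AS1 to RP11-578O24.2 and along the whole X stretch the clone 2 points lie below all parental points, while PEX2, HEY1 and MRPS28 show overlapping or neighbouring values.

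Whole chromosomes differed in their share of calls. Of 17502 tested genes, 16941 could be placed on a chromosome by their identifier. On chromosome 13, 138 of 243 tested genes (56.8%) were lower in clone 2 and 11 (4.53%) higher, with a median log2 fold change of -0.53. On chromosome 14 the order was reversed: 315 of 583 genes (54.0%) were higher and 29 (4.97%) lower, with a median of 0.46. Chromosomes 3 and 15 had 34.1% and 37.6% of genes lower, with medians of -0.18 and -0.22. Clone 4, set against the same parental libraries, had medians of -1.15 on chromosome 13 and 0.49 on chromosome 14. Tested directly between the clones, 137 genes of chromosome 13 were higher in clone 2 and 2 lower, a median difference of 0.62, and on chromosome 14 the median difference was -0.02.

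The lowest stretch of 30 neighbouring genes in clone 2 lay on chromosome 13, from SLITRK5 to CARS2, with 29 genes lower, none higher and a median of -1.06. Its most abundant members fell: TM9SF2 from 301, 295 and 266 to 110.3 and 121 CPM, IPO5, a nuclear importin, from 148, 138 and 149 to 68.8 and 66 CPM and STK24, a stress kinase, from 129, 113 and 119 to 56.1 and 56.9 CPM. The retinoblastoma gene RB1, on the same chromosome but outside this stretch, was at 57.9, 49.6 and 58 CPM in the parental libraries, 28.3 and 29.1 CPM in clone 2 and 0.137 and 0.25 CPM in clone 4. It was lower in clone 2 than in the parental cells, with a log2 fold change of -0.94 (SE 0.12, adjusted p = 2.9e-05), and nearly absent in clone 4. The highest stretch lay on chromosome 14, from CCNB1IP1 to HAUS4, with 28 genes higher, 1 lower and a median of 0.97. The repair endonuclease APEX1 rose there from 93.4, 94.5 and 71.8 to 132 and 131 CPM. The 1 lower gene was HNRNPC, which packages nascent RNA and is its most abundant member, from 706, 759.6 and 699 to 574 and 546 CPM. On chromosome 16, 22 of 30 genes from TRADD to SLC12A4 were higher and none lower, with a median of 0.74.

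**Figure D5:**
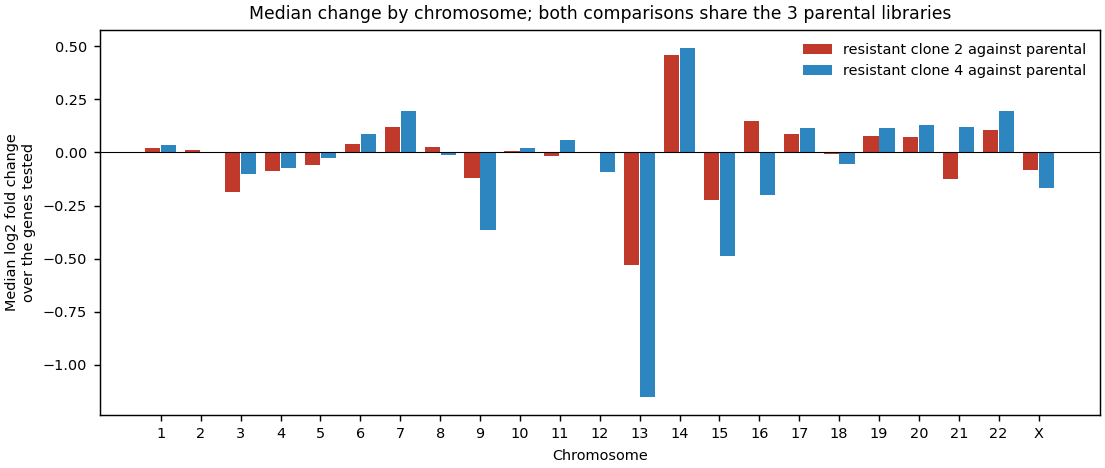
Median log2 fold change over the tested genes of each chromosome in resistant clone 2 (red) and resistant clone 4 (blue), each against the same 3 parental libraries. Chromosome 13 is the lowest (-0.53 and -1.15) and chromosome 14 the highest (0.46 and 0.49) in both.

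The direct comparison of the clones called 3422 genes higher and 2974 lower in clone 2. Among genes with a mean of at least 2 log2 CPM that were also called against the parental cells, those lowest in clone 2 relative to clone 4 after PKIA included STC1, a secreted regulator of calcium and phosphate, and the cyclin-like gene CCNO. STC1 was at 18.1, 17.4 and 13.6 CPM in the parental libraries, 6.83 and 8.61 CPM in clone 2 and 39.8 and 34.3 CPM in clone 4, so the clones lay on opposite sides of the parental cells. SATB1-AS1, an antisense RNA, fell from 13.4, 14.7 and 14.8 to 0.597 and 1.12 CPM, and clone 4 stood at 4.05 and 3.76 CPM. At the other end NDN, a growth suppressor of chromosome 15, was at 37.5, 39.5 and 40.5 CPM in the parental libraries and 12 and 9.5 CPM in clone 2, with 0 counts in clone 4. RCBTB1, of chromosome 13, showed the same order, with 23.8, 20.6 and 18.8 CPM in the parental libraries, 8.62 and 8.85 CPM in clone 2 and 0 counts in clone 4. Lactate dehydrogenase B (LDHB) was at 70.1, 65.2 and 75.4 CPM in the parental cells and 52.9 and 49.3 CPM in clone 2 against 0.137 and 0.334 CPM in clone 4, and its small fall in clone 2 lost its call without clone 2 replicate 2.

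Among the remaining genes with the largest changes, GALNT5, a glycosyltransferase that starts mucin-type sugars, rose from 1.16, 1.25 and 0.586 to 38.8 and 36.3 CPM and was above clone 4 (7.01 and 5.76 CPM) by 2.55 (adjusted p = 8.9e-07). MDGA1, a membrane-anchored adhesion protein of neurons, rose from 1.32, 1.72 and 1.39 to 44.5 and 39.8 CPM, with clone 4 at 26.3 and 30.9 CPM. The dystrophin gene DMD fell from 69.2, 62.1 and 61.8 to 4.27 and 4.25 CPM and the potassium channel gene KCNK2 from 122, 105 and 88.8 to 6.06 and 6.9 CPM. FAM198A fell from 13.6, 14.9 and 9.38 to 0.853 and 0.885 CPM. These 5 genes were named for the size of their change, so the separation of their clone 2 and parental values follows from that choice. That limit also covers genes above that were among the largest changes, such as IFI6, IFIT1, CD74, CXCL13, LCN2, SAA1 and COL27A1. CXCL13 was also named for the size of its difference from clone 4.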

How the data were processed

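Raw counts per gene of 7 RNA-seq libraries were deposited by the authors as 1 table; per the submitters' processing notes CASAVA, FastQC and STAR were used with hg19, while no version, counter, annotation or strand setting is given there. Of 63677 rows, 6724 without a gene name kept their identifier. Counts were tested with edgeR 4.0.16 (R 4.3.3; TMM scaling, filterByExpr with a minimum of 10, robust quasi-likelihood fit of 3 group means over all 7 libraries, Benjamini-Hochberg over 17502 genes). CPM values are counts per 1000000 of the TMM-scaled library. Intervals and floors cover counting error only. Members, gene lists and the rule for named genes (largest changes, list members by size of change and level, genes at 0 in one group, largest differences between clones) were chosen with earlier results of these data known. Genes of the neighbour runs, chromosome stretches and printed promoters were named after their values were seen. Gene order and transcript length came from GENCODE 29 by identifier, promoters from RefSeq (GRCh38.p14). The scripts were tested on simulated counts. Alternatives were DESeq2 1.42.0, RLE scaling, other filters, a fold threshold, 2 groups only and replicate blocks. Others left out each library or summed the clone 2 libraries. The summing and the crossed replicate block were chosen after seeing the data. Some genes of the lists are not reported here.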

Additional observations from a re-analysis of the deposited data

Results flagged for a closer look

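The changes of clone 2 from the parental cells differed from those of clone 4 at 6396 genes when the difference was tested itself in edgeR's fit, 36.5% of those tested. The 6 genes lowest and the 6 highest in clone 2 relative to clone 4, among genes called against the parental cells with a mean of at least 2 log2 CPM over the parental and clone 2 libraries, are given with their log2 fold change of clone 2 against the parental cells. Lower in clone 2 than in clone 4 were ACOX2 (-2.05), CCNO (-1.26), STC1 (-1.07), SATB1-AS1 (-3.98) and CXCL13 (5.40), with differences between the clones of -2.16, -2.16, -2.25, -2.11 and -2.16. PKIA was at least 1390-fold lower in clone 2 than in the parental cells and had 0 counts in clone 2. Higher in clone 2 than in clone 4 were FOS (3.88), MAGEA1 (0.92), LDHB (-0.46), RB1 (-0.94), NDN (-1.88) and RCBTB1 (-1.27). For FOS and MAGEA1 the differences between the clones were 5.11 (adjusted p = 2.0e-06) and 6.54 (adjusted p = 4.5e-08). Less abundant genes can differ more: GFRA1 differed by -5.67 (adjusted p = 2.4e-06). RB1 and RCBTB1 lie on chromosome 13, and RB1, LDHB, NDN and RCBTB1 were all lower in clone 2 than in the parental cells.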

How the results depend on the processing

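The count of genes called against the parental cells, 7443, was 6373 with DESeq2, 7460 with RLE scaling, 7875 without a filter, 7215 with the stricter filter and 7797 with only the groups compared. Tested against a fold of 1.5 it was 2177 (1489 higher and 688 lower), and against clone 4 1393 (911 higher and 482 lower). With the clone 2 libraries summed to 1 sample, an alternative chosen after seeing the data, 4969 were called against the parental cells, 2295 of them lower, and 3811 against clone 4 (2162 higher and 1649 lower). Leaving out 1 library gave 4291 to 7988 calls against the parental cells (2328 to 4040 higher and 1963 to 3960 lower) and 3289 to 7348 against clone 4 (1883 to 3920 higher and 1406 to 3428 lower); the lowest came without clone 2 replicate 2, and without clone 2 replicate 1 there were 4631 and 3621. A clone 2 library left alone is assumed to vary like the other groups. The labels do not say that replicate numbers pair the samples. Deviations of same-numbered clone 2 and parental libraries correlated at -0.041 and -0.076, and those of the first clone 2 and clone 4 libraries at -0.19. Deviations of the 2 clone 2 libraries mirror each other, so these values cannot settle pairing. With the replicate block 8194 genes were called against the parental cells and 7831 against clone 4. A crossed block with the clone 2 numbers swapped, also chosen after seeing the data, gave 8169 against clone 4. Of 973 named genes none reversed; 267 calls were lost against a fold of 1.5, 131 without clone 2 replicate 2, 105 without clone 2 replicate 1, 83 with the libraries summed and 47 with DESeq2. Chromosome medians moved by less than 0.1 under RLE scaling or above 2 log2 CPM. Depth limits genes under about 1 CPM, where folds rest on few counts.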
